A study of Homo sapiens with 172 samples.

Results

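Contacts between human chromosome 7 and the nuclear lamina were followed along its length in single cells. The chromosome was represented by every 100 kb bin of the deposited table that is assigned to chromosome 7 and that was neither empty nor 0 in every column. These were 1546 bins of the 1592 that the table lists for chromosome 7, out of 26414 covered bins in the genome. The cells were KBM7, a near-haploid human leukaemia line. All 172 labelled samples form 1 group, haploid cells of clone 5-5 that carry Dam methyltransferase fused to LaminB1, and methylation was switched on by 0.5 nM Shield1, which keeps the fusion protein from being degraded, 15 h before harvest. Single cells were sorted from the smallest 2% that showed both Fucci reporters of the cell cycle. All cells came from 1 clone and no separate cultures are named, so there was no second group and no test between groups. Standard deviations are over cells and describe variation between cells, not replicate error.

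The nuclear lamina is a meshwork of lamin proteins under the inner nuclear membrane. Large, mostly gene-poor and late-replicating domains of the genome, called lamina-associated domains, lie against it, while gene-rich segments usually face the interior of the nucleus. In DamID, Dam marks adenines of DNA that comes close to the lamina, and the marked fragments are amplified and sequenced. Chromosome 7 carries the HOXA homeobox cluster, the T cell receptor gamma and beta loci and many very long neuronal genes. With 938 coding genes, or 5.89 per Mb, it ranked 10 of 20 chromosomes in gene density, counting genes by chromosome. Positions of genes were given in another build than hg19 and were not set against the bins, so the regions below are named by hg19 position alone.

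The labels list every column as a separate sample, but by their reads columns whose numbers differ by 86 were taken as the same cell. All 168 columns with values had their best match 86 numbers away. In 82 of the 84 pairs the chi-square value per bin was under 1. The pairs of cells 54 and 56 had values of 1.53 and 3.60, where the lowest among other combinations was 1.34. Bins with few reads did not enter this value, so the columns of the other pairs can still differ there. Cell 55 had 31.8% of its expected chromosome 7 reads in the lower-numbered column and 62.3% in the higher-numbered one. Cells 69 and 79, given below, differed between columns too. The columns of a pair were averaged, which left 84 cells, named by the lower number. Cells had between 7134 and 418937 reads in their deeper column, with a median of 63700, of which 540 to 25689 (median 4012) fell on chromosome 7. Values are observed over expected reads per bin, and contact was taken as a ratio of 1 or more. A ratio of 1 in a median chromosome 7 bin corresponded to 2.61 reads in the cell of median depth, and in 13 cells to under 1 read. Missed and absent contacts therefore cannot be told apart in shallow cells. Cells 69 and 79 had 0.520 and 3.22% of their expected chromosome 7 reads in the lower-numbered column. In the higher-numbered column they had 3.67 and 21.5%, so cell 79 was low there but not empty. Cell 48 had the most contacts in stretches that were free in other cells. Where these cells moved a value by much, it is also given without them.

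Chromosome 7 touched the lamina about as much as the rest of the genome. Its contact share, the percent of its bins in contact, was 28.7% ± 10.0 (SD, n = 84), against 27.7% ± 6.55 for all other bins in the same cells. The difference was 1.03 ± 7.78 percentage points, smaller than the spread over cells, and chromosome 7 was the higher one in 50 cells and the lower one in 34. Among the 22 chromosomes with values it ranked 10 in mean share. Without cells 69 and 79 the share was 29.4% ± 9.08 and the difference 1.72 ± 6.29 points (n = 82). Of all chromosome 7 values, 49.2% were 0, 22.0% lay between 0 and 1, and 28.7% reached 1.

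Contact frequency, the percent of the 84 cells in which a bin was in contact, ranged from bins that rarely met the lamina to bins that met it in most cells, with many between. A frequency under 5% was found for 506 bins (32.7%), against 36.7% of bins in the genome, and a frequency under 20% for 737 (47.7%, against 52.3%). The class from 20 to 80% held 804 bins (52.0%, against 47.4%), and 458 bins (29.6%, against 30.7%) were contacted in at least 50% of cells. The remaining 582 bins (37.6%) lay from 5 to under 50%, and in the genome this class is what the 36.7 and 30.7% above leave. In no cell were 84 bins contacted (5.43%, against 6.19%), and a count of 0 allows a frequency of up to 3.57%. In steps of 10%, for which genome shares are not given here, the class from 0 to 10% held 619 bins. The 4 classes from 10 to 50% held 118, 134, 103 and 114 bins, 469 together, and a second peak of 193 bins lay at 60 to 70%. The median bin was contacted in 22.6% of cells.

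**Figure D1:**
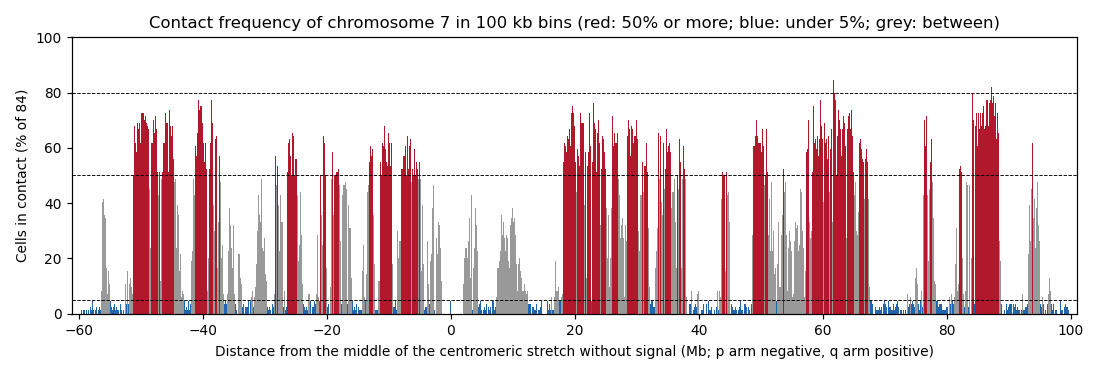
Contact frequency of each covered 100 kb bin of chromosome 7 (percent of 84 cells in contact) against distance from the middle of the centromeric stretch without signal, in Mb, with the p arm on the negative side; red bars are bins at 50% or more, blue bars bins under 5% and grey bars the bins between, and dashed lines mark 5, 50 and 80%. Blocks at 50 to 80% alternate with stretches near 0, both ends of the chromosome lie near 0, and the bars next to the centromere stay under 50%.

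At the top of the scale, 5 bins (0.323%, against 0.303% in the genome) were contacted in at least 80% of cells, and all 5 lay on the q arm. The highest was 121200001 to 121300000, in contact in 71 of 84 cells (84.5%, exact 95% Clopper-Pearson interval 75.0 to 91.5%). The other 4, which start at 145500001, 146100001, 146700001 and 147100001, were contacted in 68 or 69 cells (81.0 to 82.1%) and sit inside 1 long contacted stretch. On the p arm the highest bins were 18800001 to 18900000 and 20900001 to 21000000, both at 77.4% (65 cells, interval 67.0 to 85.8%). Intervals cover counting error only, overlap between the arms' highest bins, and do not allow for the choice of the highest bin.

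The arms were close in mean contact share, and they differed widely in some single cells. They were split at 58100001 to 59500000, the first of 2 stretches of 1.4 Mb without signal that together span the centromere. The p arm had 29.2% ± 12.3 of its 580 bins in contact (lowest cell 0, median 29.6, highest 54.3%). The q arm had 28.4% ± 10.5 of its 966 bins in contact (lowest 0.104, median 28.3, highest 46.7%). The mean difference, q minus p, was -0.73 ± 10.4 points, with the q arm higher in 33 cells and the p arm in 51, and the ranges overlapped almost fully. The arms lay within 5 points of each other in 37 cells and over 10 points apart in 18.

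Cells 13 and 42 had most of their contact calls on opposite arms. In cell 13 the p arm had 2.24% and the q arm 40.3% of bins in contact, a difference of 38.0 points. In cell 42 the p arm had 45.2% and the q arm 8.90%, a difference of -36.3 points. The reads behind these calls were as follows. The p arm of cell 13 had 112 reads in the lower-numbered column, or 9.86% of an expected 1136, where the expectation is the cell's total times the median share of that arm over cells. In the higher-numbered column it had 13.6%. Its q arm had 125% and 123%. In cell 42 the q arm had 36.7 and 39.7% and the p arm 131 and 129% of the expected reads. The deeper columns of cells 13 and 42 had 62639 and 211371 reads, against a median of 63700 over cells. The next largest differences were those of cell 43, with 54.3% on the p arm and 25.4% on the q arm, and of cells 74 and 5, with 23.3 and 14.3% on the p arm and 46.7 and 36.6% on the q arm. These cells were picked for their differences, so the values are a description. An arm that is away from the lamina and one that is missing from the library cannot be told apart by these reads.

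**Figure D2:**
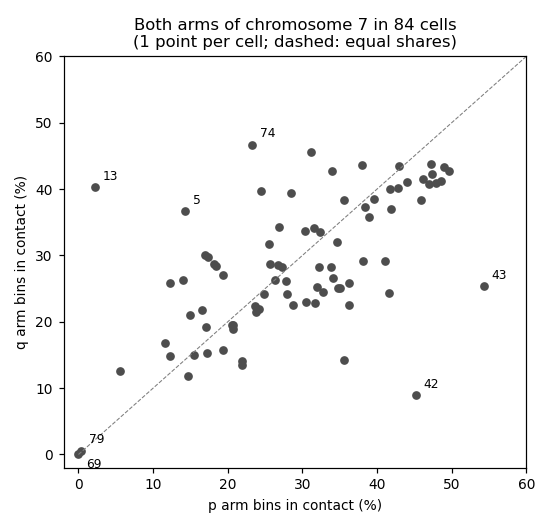
Percent of p arm bins in contact (x axis) against percent of q arm bins in contact (y axis), 1 point for each of 84 cells, with equal shares on the dashed line. Most points follow the line, cell 13 stands at 2.24 and 40.3%, cell 42 at 45.2 and 8.90%, and cells 69 and 79 lie near 0 on both axes.

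Across cells the shares of the arms moved together (r = 0.60 over 84 cells, which share 1 library per cell for both arms, and 0.52 without cells 69 and 79). After subtraction of a linear fit of each arm on the contact share of the other chromosomes r was 0.44. Without cells 69 and 79, which are near 0 on both arms, the corrected r was 0.25 (n = 82), and without cells 13, 42, 69 and 79 it was 0.40 (n = 80). The correlation between the arms thus rests in part on 4 cells, in opposite directions. For comparison, the difference between the arms had an SD of 9.26 points on chromosome 6, 10.2 on chromosome 10 and 12.8 on chromosome X, close to the 10.4 of chromosome 7. Chromosome 6 had a q arm 19.8 points higher on average, whereas that of chromosome 7 averaged -0.73. These are values of the same cells, with no test between chromosomes.

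Along the chromosome, the mean share of bins in contact varied several-fold between windows of 10 Mb. The highest window was 80000001 to 90000000 on the q arm, with 51.9% ± 24.0 (SD, n = 84) and 66 of its 100 bins at 50% of cells or more. The window 10000001 to 20000000 on the p arm followed with 46.8% ± 19.7, then 120000001 to 130000000 with 42.1% ± 18.3, 140000001 to 150000000 with 38.8% ± 13.8 and 110000001 to 120000000 with 37.9% ± 20.3. The lowest windows were the last, 150000001 to 159138663, with 9.55% ± 6.74, then 130000001 to 140000000 with 12.8% ± 8.27 and the first, 1 to 10000000, with 16.8% ± 8.16. Single cells ranged from 0 to 91% in the highest window and from 0 to 26.1% in the last. The spread within most windows was thus wide, and windows next to each other in this order overlapped over most of their range.

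Both ends of chromosome 7 stayed away from the lamina. The first 2 Mb had 1.01% ± 2.66 of bins in contact, and 71 of 84 cells had no contact there. In the last 2 Mb of bins, 157200001 to 159138663, the share was 1.49% ± 3.27, and 66 cells had none. No bin of either end was contacted in more than 4.76% of cells. The sides of the centromere were intermediate, with 23.3% ± 21.6 in the 2 Mb before the stretch without signal and 24.6% ± 20.1 from 61000001 to 63000000. The 2 Mb directly behind the first stretch without signal held 2 covered bins and are not read further. Bins beside the centromere were expected to hold few reads. The stretches 57100001 to 58000000 and 61700001 to 62700000 had medians of 57 and 51 units of expectation per bin, against 310 over chromosome 7, so their frequencies are less certain.

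Bins contacted in at least 50% of cells formed 75 stretches, 28 on the p arm and 47 on the q arm. Their median length was 3 bins, 22 were single bins, and 15 were at least 1 Mb long. The 8 longest held 170 of the 458 bins. The longest of all lay near the end of the q arm, between 144100001 and 147900000. It measured 3.8 Mb, with a mean frequency of 72.1% and a range from 54.8 to 82.1%. It was followed by 8400001 to 10900000 on the p arm, with 2.5 Mb and a mean of 67.2%. On the q arm came 121100001 to 123300000, with 2.2 Mb and 67.4%, then 77700001 to 79700000, with 2 Mb and 65.7%, and 108300001 to 110100000, with 1.8 Mb and 63.4%. On the p arm 48500001 to 50100000 and 51600001 to 53200000 were 1.6 Mb each, with means of 59.7 and 57.5%, and 13200001 to 14700000 was 1.5 Mb, with 66.6%.

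Most cells had part of such a stretch called in contact rather than all or none of it. The longest had a contact in 81 of 84 cells, at least 50% of its bins in contact in 72 cells, all 38 bins in 9 cells and no bin in 3. At 8400001 to 10900000 these numbers were 79, 62, 10 and 5 cells. The pair of stretches closest to the centromere, at 48500001 and 51600001, varied most between cells, with SDs of 35.2 and 35.5 points and 8 cells each without any contact. Their shares passed 75% in 40 and 33 cells and were under 25% in 16 and 20. Over the 8 stretches, 61 to 72 cells lay strictly between no contact and full contact. Bins missed in shallow cells also count as partial contact. Cell 55, with 19201 reads, had 30.0% of the bins of the 8 stretches in contact, and cell 78, with 272997, had 96.5%. Cell 34, with 124236 reads, had 36.5%. The part of depth was not tested.

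**Figure D3:**
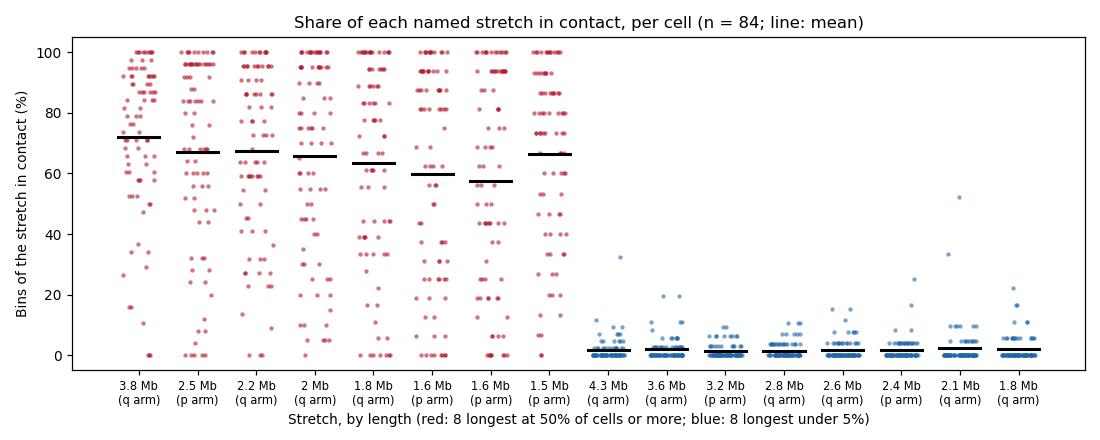
Percent of the bins of a stretch in contact in each of 84 cells (points, with the mean as a line) for the 8 longest stretches at 50% of cells or more (red) and the 8 longest under 5% (blue), ordered by length. The red points cover the whole range from 0 to all bins, while the blue ones lie close to 0, with cell 48 as the highest point at 52.4%.

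A cell had 5.62 ± 2.21 of these 8 stretches in contact over at least 50% of their bins. All 8 were in contact in 19 cells, 7 in 20 cells and 6 in 14 cells. None was in contact in 2 cells, 69 and 79. Most pairs of stretches varied together over cells. After a linear correction for the cells' contact share, the correlation over 84 cells averaged 0.40 for the 12 pairs on the same arm (range 0.21 to 0.66) and 0.26 for the 16 pairs across arms (-0.0022 to 0.42), so that the ranges overlapped. Without cells 69 and 79 the means were 0.31 and 0.15. It was highest between the neighbours 48500001 and 51600001 (r = 0.66, 3.1 Mb apart by their starts), which were both in contact in 40 cells, neither in 23 and 1 of them in 21. It was 0.54 between 8400001 and 13200001 and 0.51 between 144100001 and 121100001, which start 23 Mb apart. The lowest value was -0.0022 between 121100001 and 51600001, where 34 cells had 1 of the pair in contact and 39 had both. The highest across arms was 0.42, between 144100001 and 13200001, which start 131 Mb apart. Without cells 69 and 79 the mean over the 28 pairs fell from 0.32 to 0.22, with 26 of 28 above 0. All stretches of a cell come from 1 library, and their number of reads is shared.

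The segments that avoided the lamina were of similar length. Bins under 5% formed 83 stretches, of which 14 were at least 1 Mb and 29 were single bins, and the 8 longest held 228 of the 506 bins. The longest was 128800001 to 133100000 on the q arm, 4.3 Mb with a mean frequency of 1.80%. Next came 104600001 to 108200000, with 3.6 Mb and 1.95%, and 99500001 to 102100000, with 2.6 Mb and 1.60%, on the same arm. The 2 chromosome ends gave 1 to 3200000, with 3.2 Mb and 1.23%, and 156400001 to 159138663, with 2.8 Mb and 1.53%. The others were 4600001 to 7000000, with 2.4 Mb and 1.59%, 137800001 to 139900000, with 2.1 Mb and 2.27%, and 149900001 to 151700000, with 1.8 Mb and 1.98%.

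Contacts inside these free stretches were few and mostly isolated. Of 330 contacts in the 8 stretches over all cells, 269 were runs of 1 bin, and 49 of the 330 came from cell 48. The longest stretch was without any contact in 56 of 84 cells, and in 14 of the other 28 a single bin was called. Over the 8 stretches together, no bin was in contact in 30 cells. Cell 48 had 21.5% of the 228 bins in contact, the highest value, and the next cell, cell 19, had 8.33%. Cell 19 had only 7134 reads. Cells 22 and 54, with 9913 and 14065 reads, had 7.02 and 6.58%, and cell 6, with 62242, had 7.02%. In 13 cells a ratio of 1 corresponded to under 1 read, so a call there can rest on very few reads. The part of depth in these contacts was not tested. The median cell had 0.658%. The mean without cell 48 was 1.48% ± 1.89 (n = 83), and without cells 48, 54 and 56 the longest free stretch was 5.9 Mb. In the 8 long contacted stretches the share was 66.1% ± 21.9 (SD, n = 84), and it exceeded that of the free stretches in 83 cells, with cell 69 at 0 in both. The members of both sets were chosen by their frequency, so this contrast is a description. Expected reads had medians of 293 units per bin under 5% and 316 at 50% or more, and over the 1546 bins frequency correlated weakly with expected reads (r = 0.21, rho = 0.16). Their part in the contrast was not tested.

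Between these classes lay stretches that met the lamina in a minority of cells. Bins from 20 to under 50% numbered 351, in 137 stretches of at most 1.3 Mb. The genome's share in this class is not given here. The longest were 28300001 to 29600000 on the p arm, with a mean of 32.5%, and 67500001 to 68800000 on the q arm, with 27.2%. Close to the latter, 69100001 to 70100000 had a mean of 32.5%. In these places too the contact took in much of the stretch in some cells and none in others. At 69100001 to 70100000, 15 cells had over 75% of the bins in contact and 46 had under 25%, with 30 of them at none. The stretches at 67500001 and 69100001 had a higher correlation than any pair of long stretches above (r = 0.79 over 84 cells, corrected for contact share). They are close neighbours, the first ending at 68800000, and the bins between them were only just under the limit of 20%. The long pairs start 3.1 Mb or more apart, so the values are not at like distance. The part of distance was not tested. The intermediate stretches named here were chosen after their values were seen.

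Some borders between contacted and free segments were steep. The median step in mean frequency between adjacent windows of 0.5 Mb was 6.79 points over 296 steps. These windows lay at fixed positions, and a border inside a window was split. The 5 largest steps between them, picked for their size, were all falls in the direction from the p end to the q end. Steep rises occurred inside windows. The free stretch ending at 108200000 had 2.38% in its last bin, and the contacted one from 108300001 had 60.7% in its first. The order and direction of the 5 steps therefore hold for these windows only. From 39000001 to 39500000 the mean was 54.5%, and in the following 0.5 Mb it was 5.48%, with the left window higher in 68 cells and the right one in 1. Around 91500000 it fell from 52.4 to 5.48%, and around 148000000, at the end of the longest contacted stretch, from 57.6 to 10.7%, with the left window higher in 71 cells. The steps at 97500000 and 142000000 were from 48.3 to 2.86% and from 53.1 to 7.62%. Between neighbouring single bins the median difference was 4.76 points. The largest, 66.7, was a fall from 70.2 to 3.57% into the bin 143900001 to 144000000. That bin had 3 units of expectation against a median of 310, so this fall is not read as a border.

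Within a cell, contacts came in runs of consecutive bins. The mean run on chromosome 7 was 3.51 ± 1.64 bins (SD, n = 84), with 135 ± 46.6 runs per cell. From the lower-numbered columns alone the mean run was 3.26 ± 1.44 bins (n = 84). With these columns thinned to 30000 reads it was 2.68 ± 0.579 bins, in the 61 cells that had as many. The spread thus includes differences in depth, whose part was not tested. Of the 11369 runs in all cells, 5633 (49.5%) were 1 bin long, and 785 had at least 10 bins. The latter held 36.3% of all contacts, and 76 of 84 cells had at least 1 of them. The longest run of a cell had a median of 2.35 Mb and ranged from 0.1 to 8.8 Mb. Chromosomes 6, 10 and X, measured the same way, had mean runs of 3.88 ± 1.73, 3.51 ± 1.46 and 3.71 ± 1.67 bins. Within cells, their mean runs differed from those of chromosome 7 by 0.372 ± 1.17, -0.0306 ± 1.20 and 0.205 ± 1.32 bins (SD, n = 84, 83 and 84), less than the spread of these differences. They had 40.3, 36.6 and 38.2% of contacts in runs of at least 10 bins, values pooled over cells and without a spread.

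The longest runs gathered in 1 part of the q arm. Cell 36 was in contact without a break from 118400001 to 127200000 and cell 65 from 117500001 to 126300000, both 8.8 Mb. These runs joined several stretches at 50% or more across bins of lower frequency, down to 9.52 and 10.7% of cells. Cell 36 had 418937 reads in its deeper column, the most of all cells, and cell 65 had 119604. Of the 10 runs of at least 50 bins, which came from 8 cells, 8 lay in this part of the chromosome, starting between 117500001 and 121100001. The other 2 were 8300001 to 15300000 in cell 73, which is 7 Mb, and 92700001 to 97700000 in cell 46. None of the 10 overlapped the contacted stretch at 144100001.

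**Figure D4:**
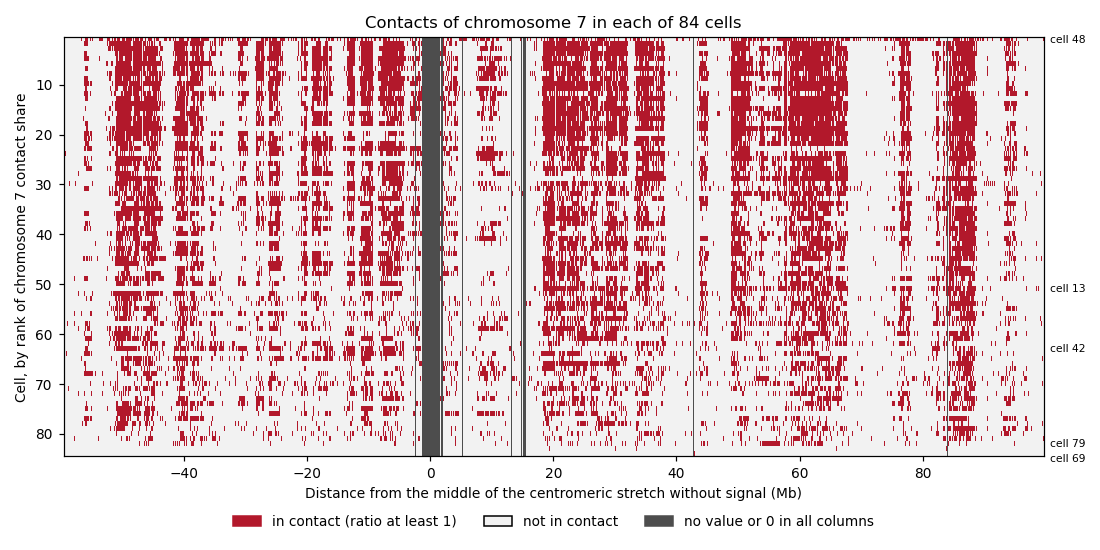
Contacts of chromosome 7 in each of 84 cells (rows, ordered by contact share from the highest at the top) against distance from the middle of the centromeric stretch without signal, in Mb; red marks a bin in contact, light grey a bin not in contact and dark grey a bin without values. The same blocks recur from cell to cell with gaps in single cells, the p arm of cell 13 and the q arm of cell 42 are nearly blank, and cells 79 and 69 at the bottom have 7 bins and 1 bin in contact.

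Cells differed in how much of chromosome 7 they had at the lamina. The lower and upper quartiles of the share were 22.5 and 37.0%. Cell 48 was highest with 45.4%, followed by cell 75 with 45.3% and cell 78 with 45.1%. The latter pair had mean runs of 6.81 and 7.11 bins, 95.3 and 96.5% of the bins of the 8 long contacted stretches in contact, and no contact in the 8 free ones. Cell 48 had a mean run of 2.15 bins, with 57.6% of the contacted and 21.5% of the free bins in contact. The lowest were cell 69 with 0.0647% (1 bin), cell 79 with 0.453% (7 bins) and cell 68 with 9.90%.

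In cells 69 and 79 the chromosome had far fewer reads than expected in both columns. Cell 69 had 58 reads on chromosome 7 in its lower-numbered column, 0.520% of the 11163 expected, and 563 in the higher-numbered one, 3.67% of those expected. The rest of its genome was 36.7% in contact, above the mean of 27.7%. Cell 79 had 83 reads, 3.22% of the 2578 expected, and 789 in the other column, 21.5%, while the rest of its genome was 18.5% in contact. Both arms were affected alike in the lower-numbered column, at 0.493 and 0.533% of the expected reads in cell 69 and 3.25 and 3.18% in cell 79. The next lowest cell in that column, cell 55, had 31.8% of the expected reads, and 62.3% in the other column. The highest, cell 19, had 254% with 7134 reads in its deeper column. DamID reads come from methylated DNA, so a chromosome that is away from the lamina and one that is missing from the library cannot be told apart here.

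The contact share of chromosome 7 rose with that of the other chromosomes over cells (Pearson r = 0.63, Spearman rho = 0.68, n = 84; r = 0.72 without cells 69 and 79). It also rose with the number of reads (r = 0.46 with log10 reads, rho = 0.51), and both shares of a cell come from 1 library of 1 depth. After subtraction of the linear fit on the other chromosomes, chromosome 7 kept an SD of 7.78 points over cells, number 10 of 22 chromosomes, and 6.29 points without cells 69 and 79. In the 61 cells with at least 30000 reads in the lower-numbered column, the share in that column was 30.5% ± 10.0 before and 27.2% ± 8.48 after thinning to 30000 reads, with 23 shallower cells left out.

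Bins close to each other touched the lamina in the same cells, and this coordination faded along the chromosome. Here the correction was a linear fit on the cell's contact share over all covered bins, chromosome 7 included. Among the 804 bins of 20 to 80%, the corrected mean correlation over 84 cells was 0.43 for adjacent bins and 0.24 at 1.1 to 2 Mb. It was 0.13 at 5.1 to 10 Mb, 0.08 at 20.1 to 50 Mb and 0.05 at 50.1 to 100 Mb. Without cells 69 and 79 it was 0.41 for adjacent bins, 0.22 at 1.1 to 2 Mb, 0.05 at 20.1 to 50 Mb and 0.02 at 50.1 to 100 Mb. At 20.1 to 50 Mb pairs of bins on the same arm had a mean of 0.09 and pairs across the centromere 0.06, and at 50.1 to 100 Mb the values were 0.04 and 0.05. On chromosomes 6, 10 and X adjacent bins had 0.37, 0.44 and 0.37, close to chromosome 7. The points of each mean share cells and libraries, and the weak values at long range are not read as a finding.

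**Figure D5:**
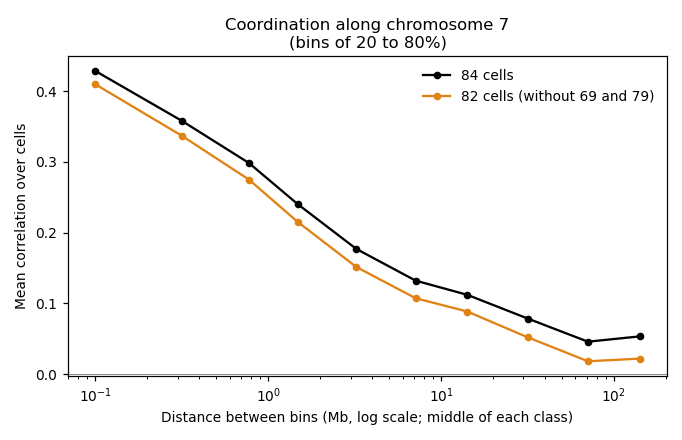
Mean correlation over cells between pairs of the 804 chromosome 7 bins of 20 to 80% (y axis, corrected for each cell's contact share) against the distance between them in Mb on a log scale, for all 84 cells (black) and for 82 cells without cells 69 and 79 (orange). The black line falls from 0.43 for adjacent bins to 0.05 at 50.1 to 100 Mb, and the orange line, which is below it in every distance class, from 0.41 to 0.02.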

How the data were processed

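The authors deposited ratios of observed over expected reads in 100 kb bins, and the genome build was hg19 per the labels. The submitters' processing notes name cutadapt and Bowtie2 2.1.0. For duplicate reads and for the expectation, the method is not given in the sources used here. Samples 81, 82, 167 and 168 are not analysed here. Whole read numbers were worked back from the common steps of the ratios, with whole numbers (within 0.02) for 100% of the values above 0. The expectation is given in the same steps, as units per bin. The recovery and the runs were tested on simulated data. The PCR reads carry no molecular identifiers and are not independent molecules. Paired columns were averaged, and pairing was checked from correlations of log reads and a mean chi-square, using bins with 10 reads or more.

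Frequency, stretches, runs and correlations were computed with Python 3.11.15, numpy 2.4.6 and scipy 1.17.1. A bin without signal ended a stretch or run. Expected reads of a chromosome or arm were the cell's total times the median share over the lower-numbered or higher-numbered columns. Named regions were the 8 longest stretches of each kind, the highest bin of each arm, ends, centromere flanks and the 5 largest steps. Named cells were the 3 highest and lowest, the 2 with the longest runs and those under 5% of expected chromosome 7 reads in the lower-numbered column. Other cells, the 10 Mb windows and the intermediate stretches were named after their values were seen. The members and lists were chosen with earlier results of these data known. Chromosomes 6, 10 and X were taken for comparison. No p-value was made from cells.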

Additional observations from a re-analysis of the deposited data

How the results depend on the processing

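Of 152 values under 19 alternatives, 1 of them (without cells 13 and 42) chosen after seeing the data, 131 stayed within 1 SD over cells or within 1.5-fold. The mean difference between the arms had no stable sign, from -1.85 to 0.39 points. The percent of bins at 80% of cells or more, 0.323, was 5.37, 0 and 0 at a ratio limit of 0.5, 1.5 and 2, 0.582 after division of each cell by its mean, 0 from lower-numbered and 1.16 from higher-numbered columns alone, 1.42 in even-numbered cells, 1.23 and 0.582 in cells 1 to 29 and 30 to 86, 0.582 without cells 69 and 79 and 0.517 without cells 48, 54 and 56. At limits of 1.5 and 2 the percent at 50% of cells or more was 18.6 and 5.76, and at 0.5 the percent under 5% was 17.8. At a limit of 0.5 the longest contacted and free stretches were 7.1 and 1.1 Mb, and at 2 they were 1.1 and 7.4 Mb. At 2 the contact share was 17.0%. These follow from the limit's own construction. The longest free stretch was 1.8 Mb in cells 1 to 29 and 2.5 Mb at 30000 reads. The limit of 5% stands for fewer cells out of 29 or 61 than out of 84, so these lengths are not like for like. The cause was not tested. No paired analysis was possible because all samples belong to 1 group.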

Other observations

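Some bins of chromosome 7 were expected to hold very few reads, and there the ratio can be high from a single read. The bin 59500001 to 59600000, between the 2 stretches without signal at the centromere, had 2 units of expectation against a median of 310, was called in contact in 4 of 84 cells and reached a ratio of 37.9. The highest averaged ratio of the chromosome, 68.7 in cell 25, was at 35100001 to 35200000, with 19 units. The next, 63.1 in cell 19, was at 12100001 to 12200000, which has 328 units and was contacted in 66.7% of cells, and cell 19 has the fewest reads of all cells.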
